A study of Homo sapiens with 4 samples.

Results

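NRF2, the transcription factor encoded by NFE2L2, is held at low levels by KEAP1, an adaptor of a CUL3 ubiquitin ligase that senses oxidants and electrophiles. When KEAP1 is modified, NRF2 accumulates, pairs with small MAF proteins and binds antioxidant response elements. Its targets make glutathione, run the thioredoxin system and break down haem and quinones, and the repressor BACH1 occupies many of the same elements until haem displaces it. The genes described here are 9 such targets, HMOX1, NQO1, GCLM, GCLC, TXNRD1, SRXN1, SLC7A11, TXN and PRDX1. They were chosen by gene symbol, and each has 1 of the 34692 entries of the deposited signal table.

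RNA came from K562 cells, an established erythroleukaemic line derived from chronic myelogenous leukaemia, and was hybridised to Illumina HumanHT-12 beadchips. The groups were 2 stable transductants labelled as over-expressing ZNF16, a zinc finger gene, and 2 stable control transductants; all 4 carry a stable transduction, and the labels name neither the vector, its promoter nor the number of clones behind each. The series asks what ZNF16 does to gene expression in this line. The labels do not say whether replicates came from separate transductions, so the spread behind each p-value is that of these arrays alone and may be technical.

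No array detected the transcript of ZNF16. Its entry had deposited signals of 401 and 411 in ZNF16 replicates 1 and 2, against 393 and 363 in control replicates 1 and 2, with detection p-values of 0.404 and 0.343 in the ZNF16 arrays and of 0.519 and 0.693 in the controls. The over-expression named in the labels is therefore not seen in these data. Where the probes of this combined entry lie relative to the introduced sequence is not stated, so the groups are those of the labels, and every direction in what follows rests on them.

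The arrays had mean signals of 956 to 998 and detected 9913 to 10762 entries, where detected means a deposited detection p-value under 0.05. For a single probe this p-value sets the signal against the array's negative control beads. How it was made for an entry that combines several probes is not given, and there it need not follow the signal. All 12 markers of an erythroleukaemic line that were looked up, among them HBG1 and GATA1, were detected on all 4 arrays. Of the 12, 8 were higher and 3 lower with ZNF16 and HBG1 was equal, with a median log2 difference of 0.19. HBE1, HBG1 and HBG2 had signals of 60392 to 68827 where array maxima were 65186 to 68827, so their differences cannot be read. Both ZNF16 arrays lay above both controls for 5 of the 12 and below for 0, beside 21.0% and 19.0% of all tested entries. HBZ had 0.75 and TFRC 0.56 (limma adjusted p of 0.585 and 0.644), and GATA1 was lowest at −0.39. Of 13 markers of other cell types, CD3D, EPCAM and PECAM1 were detected on all 4 arrays and 5 on none, CD3E, CD14, MPO, COL3A1 and KRT5. Of the 6 tested, EPCAM was higher with ZNF16, with a log2 difference of 0.51, and 5 were lower. CD3D was the lowest, at −0.89 (limma unadjusted p = 0.0116, adjusted p = 0.495), with both ZNF16 arrays below both controls. Such separation was seen below for 3 of the 6 and above for 1, beside 19.0% and 21.0% of all tested entries. At an unadjusted p under 0.05, 4.00% of all tested entries were lower. The median of the 6 was −0.27. The part of either marker shift in the results was not tested. Control replicate 2 stood apart. The SD of its log2 differences was 0.610 and 0.525 from ZNF16 replicates 1 and 2 and 0.520 from control replicate 1, against 0.341 between the ZNF16 arrays.

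The antioxidant response element has the core TGACNNNGC, where N is any base. This core and its reverse complement were searched for in RefSeq promoter windows of GRCh38.p14, which run from 250 bases before a transcription start to 50 after it. Windows were held for 6 of the 9 genes, all but HMOX1, SLC7A11 and PRDX1. The core was found in 3 of their 7 windows, against 13.3% of 35116 windows over all genes; the 3 windows belong to GCLM (1) and TXNRD1 (2 start sites). The sequences printed are the 3 matches that lie wholly before a start, since these elements are what the 9 genes are known to share. Each is read 5′ to 3′ on the strand that holds the core, which is in capitals, with 10 bases on either side.
GCLM: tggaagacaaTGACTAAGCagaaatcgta
TXNRD1, first start: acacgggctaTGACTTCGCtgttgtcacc
TXNRD1, second start: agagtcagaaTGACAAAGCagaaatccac

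The GCLM match lies at chr1:93909446-93909474 on the plus strand, opposite to the gene, and its core spans positions −34 to −26 relative to the start. The TXNRD1 matches lie at chr12:104215670-104215698 on the plus strand, the strand of the gene, and at chr12:104286920-104286948 on the minus strand. Their cores span positions −99 to −91 and −102 to −94 relative to their starts. The GCLM match and the second TXNRD1 match have the same base at 19 of 29 positions, whereas the other pairs of these 3 windows share 13. These counts include the set letters of the core, which the search itself makes the same in every pair. The first TXNRD1 window holds another match that spans the start itself. No match was found in the windows of NQO1, GCLC, SRXN1 and TXN, which says only that these letters are not there, and elements farther from a start were not searched.

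Expression of the 9 targets was then compared between ZNF16 and control transductants. NQO1 was the target with the largest difference, 1.88-fold higher with ZNF16, and GCLM was 1.25-fold lower. TXNRD1, SRXN1, TXN and PRDX1 differed by less than 1.14-fold. HMOX1, GCLC and SLC7A11 were detected on no array. No target passed limma's test over the 10868 entries tested, those detected on at least 2 arrays (Benjamini-Hochberg adjusted p from 0.546 to 0.987 over the 6 tested targets). The background was the same, with 0% of all tested entries past an adjusted p of 0.05.

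**Figure D1:**
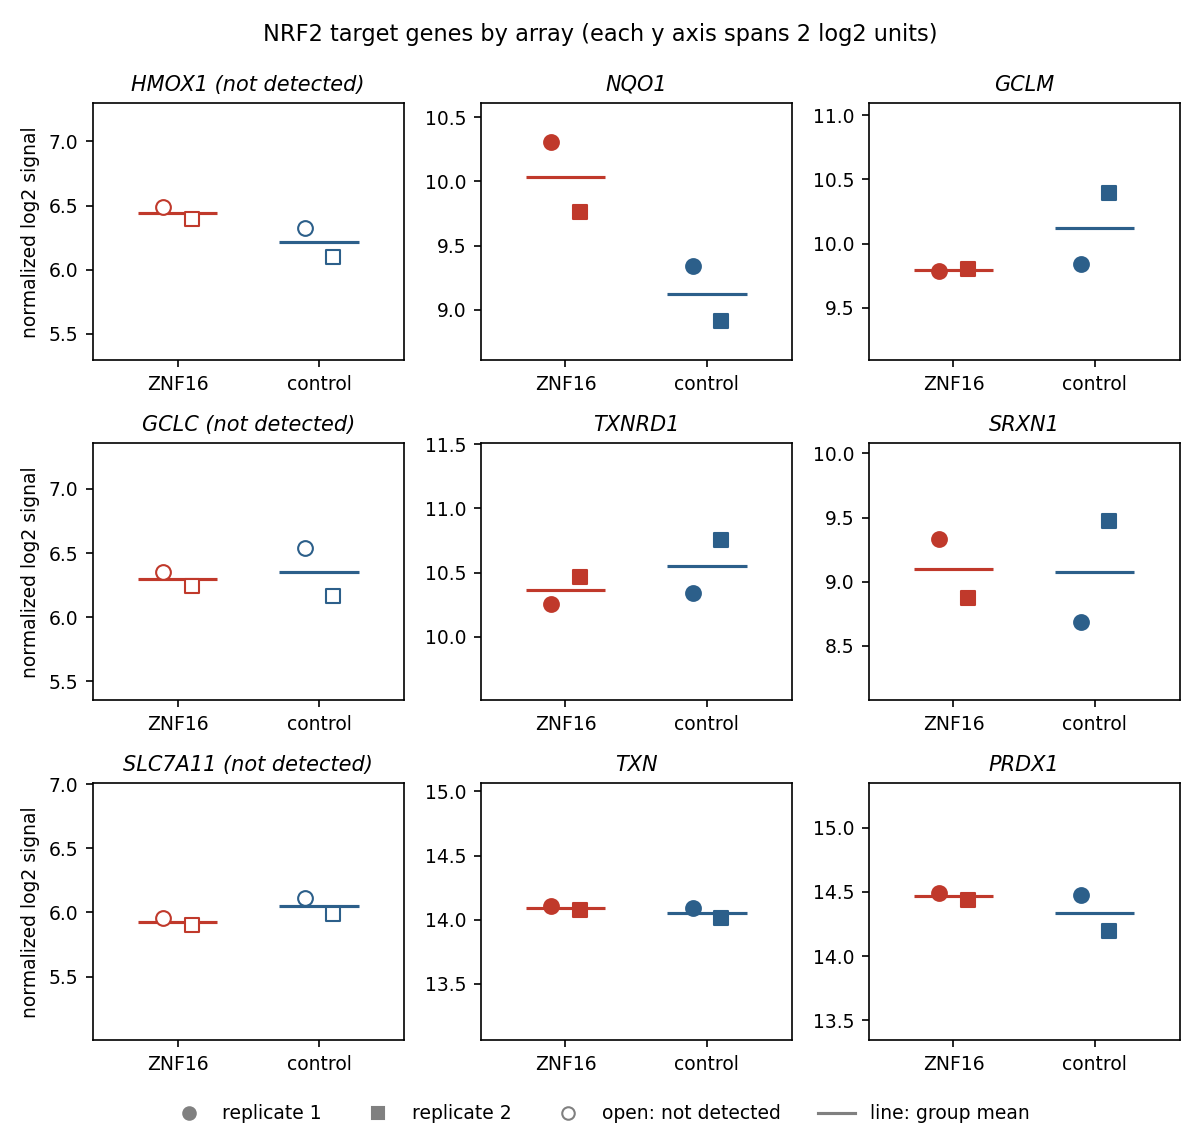
Normalized log2 signal of the 9 targets on each array, with ZNF16 transductants in red at the left and controls in blue at the right; circles are replicate 1, squares replicate 2, open symbols arrays on which the gene was not detected, and lines group means. NQO1 lies higher on both ZNF16 arrays than on both controls, GCLM lies lower, and HMOX1, GCLC and SLC7A11 have open symbols throughout.

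NQO1 encodes the quinone reductase that turns quinones into hydroquinones in a single step, which spares the cell semiquinone radicals. Its deposited signal was 1608 and 1269 in ZNF16 replicates 1 and 2, against 1044 and 865 in control replicates 1 and 2. On the normalized log2 scale, after background correction and quantile normalization, it was 10.31 and 9.76 in the ZNF16 arrays and 9.34 and 8.91 in the controls. Both ZNF16 arrays were above both controls, by 0.42 to 1.40 in the 4 pairs. The group means were 10.03 ± 0.39 in ZNF16 transductants and 9.13 ± 0.31 in controls (SD, n = 2 arrays each), a log2 difference of 0.91 ± 0.28 (standard error; limma unadjusted p = 0.0154, adjusted p = 0.546). The unadjusted 95% interval ran from 0.24 to 1.58, so that NQO1 was the only target of the 6 with an unadjusted p under 0.05, where 3.68% of all tested entries were higher at that level.

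The size of the NQO1 difference depended on the arrays and the background. Without control replicate 1 it was 1.12 and without ZNF16 replicate 2 it was 1.18, while it was 0.69 without control replicate 2 and 0.63 without ZNF16 replicate 1. It was 0.61 on uncorrected signals, and 0.30 when the negative-control mean and SD were inferred from all entries. The NQO1 entry combines several probes, and it had deposited detection p-values of 0.00413 and 0.000244 with ZNF16 and of 0.0404 and 0.0276 in the controls.

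Glutathione is made by glutamate-cysteine ligase, of which GCLC is the catalytic subunit and GCLM the modifier subunit that raises its affinity for glutamate, and SLC7A11 is the light chain of the antiporter that brings in cystine for it. GCLM had deposited signals of 1237 and 1291 in ZNF16 replicates 1 and 2, against 1328 and 1647 in control replicates 1 and 2. Its normalized log2 signal was 9.79 and 9.80 in the ZNF16 arrays, against 9.84 and 10.40 in the controls. Both ZNF16 arrays were therefore lower than both controls, but lower than control replicate 1 by little. The log2 difference was −0.32 ± 0.26 (standard error; adjusted p = 0.754, limma), with a 95% interval from −0.94 to 0.29. Leaving out control replicate 2 gave −0.05, and leaving out control replicate 1 gave −0.60.

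The catalytic subunit and the transporter were at background. GCLC had deposited signals of 420 and 403 in ZNF16 replicates 1 and 2, against 424 and 400 in control replicates 1 and 2, with detection p-values from 0.391 to 0.497. SLC7A11 had 361 and 353 in the ZNF16 arrays, against 371 and 374 in the controls, with detection p-values from 0.547 to 0.717. The inferred negative-control means of the arrays were 369.8 to 393.1, so neither gene gave a signal that could be compared. The GCLC entry combines several probes, so that a detected probe could be hidden in it, while the SLC7A11 entry is a single probe. SLC3A2, the heavy chain that anchors SLC7A11 at the membrane and also partners other transporters, was detected, with a log2 difference of −0.15 ± 0.22 (standard error; adjusted p = 0.878, limma), and gave −0.27 on leaving out ZNF16 replicate 1 and −0.020 on leaving out ZNF16 replicate 2. ATF4, a stress factor that also drives SLC7A11, had −0.02 ± 0.26 (standard error; adjusted p = 0.989, limma).

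**Figure D2:**
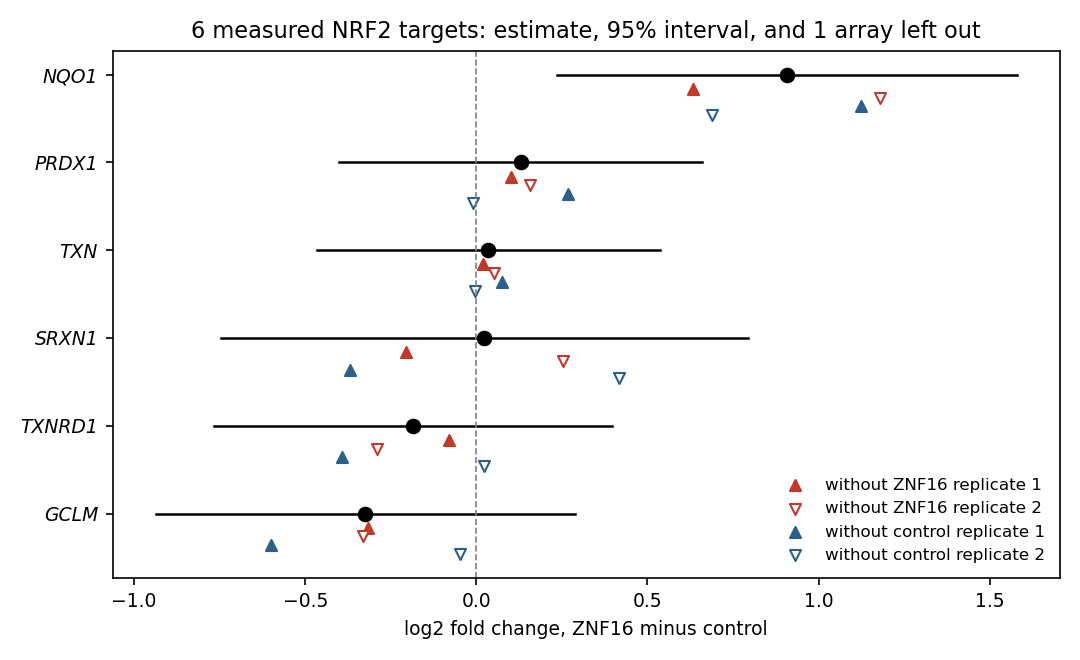
Log2 difference, ZNF16 minus control, of the 6 tested targets (black points) with unadjusted 95% intervals from limma (bars) and the value with 1 array left out (triangles below each bar). Only the NQO1 interval lies to the right of 0, from 0.24 to 1.58. The triangles of TXNRD1, SRXN1, TXN and PRDX1 fall on both sides of 0, by the most for SRXN1.

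The thioredoxin system passes electrons from NADPH through the selenoprotein reductase TXNRD1 to thioredoxin, TXN, and on to peroxiredoxins such as PRDX1, which remove hydrogen peroxide. Sulfiredoxin, SRXN1, restores peroxiredoxins that have been over-oxidised. TXNRD1 had normalized log2 signals of 10.26 and 10.47 in ZNF16 replicates 1 and 2, against 10.34 and 10.76 in control replicates 1 and 2. The groups overlapped, since control replicate 1 lay between the ZNF16 arrays. Its log2 difference was −0.19 ± 0.24 (standard error; adjusted p = 0.855, limma), and 0.02 without control replicate 2.

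SRXN1 had the widest spread of the targets within the control group. Its normalized log2 signal was 9.33 and 8.87 in ZNF16 replicates 1 and 2, against 8.69 and 9.47 in control replicates 1 and 2. The control arrays enclosed both ZNF16 arrays. The log2 difference was 0.02 ± 0.32 (standard error; adjusted p = 0.987, limma), and became 0.42 on leaving out control replicate 2 and −0.37 on leaving out control replicate 1.

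Among the 6 tested targets, TXN and PRDX1 differed least between the ZNF16 arrays after GCLM. TXN had normalized log2 signals of 14.11 and 14.08 in ZNF16 replicates 1 and 2, against 14.10 and 14.02 in control replicates 1 and 2. The groups overlapped, and the fold change of 1.02 had a 95% interval from 0.72 to 1.45 (limma adjusted p = 0.970). PRDX1 had 14.49 and 14.44 in the ZNF16 arrays, against 14.47 and 14.20 in the controls. Control replicate 2 was the low array, and the fold change of 1.09 had a 95% interval from 0.76 to 1.58 (limma adjusted p = 0.891). The intervals of GCLM, TXNRD1, SRXN1, TXN and PRDX1 each lay within 2-fold in either direction. A p-value that misses the threshold does not show that these genes were unchanged.

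HMOX1, the inducible haem oxygenase that opens the haem ring and frees iron, was at background. Its deposited signal was 437 and 422 in ZNF16 replicates 1 and 2, against 398 and 391 in control replicates 1 and 2. It had detection p-values of 0.239 and 0.294 with ZNF16 and of 0.357 and 0.548 in the controls, and the entry is a single probe. No fold change is given for a gene below detection in both groups.

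Among the 6 tested targets, 4 were higher and 2 lower with ZNF16, and the median log2 difference was 0.03, beside 0.01 over all tested entries. With 1 array left out the targets were 3 higher and 3 lower, except without ZNF16 replicate 2, where they were 4 and 2. Their median was then −0.03 on leaving out ZNF16 replicate 1, 0.10 on leaving out ZNF16 replicate 2, −0.15 on leaving out control replicate 1 and 0.0092 on leaving out control replicate 2. The groups did not overlap in 2 of the 6, NQO1 above (21.0% of all tested entries lay above) and GCLM below (19.0% lay below), 40.0% of entries in all. Under median scaling in place of quantile normalization, 1 target was higher and 5 were lower, with the median of all tested entries at −0.19 and that of the targets at −0.21, a difference of −0.02. The difference between the 2 control arrays was greater than the difference between the groups for 5 of the 6, all but NQO1, and that between the 2 ZNF16 arrays for 2, TXNRD1 and SRXN1. Of the 47 tested genes of the wider pathway, described below, the same held for 29 and 20. This share was not counted over all tested entries. There the median size was 0.32 between the controls, 0.19 between the ZNF16 arrays and 0.22 between the groups, so a large control difference is not particular to the targets. The targets did not all differ in the same direction between the controls. Control replicate 2 minus control replicate 1 was 0.55 for GCLM, 0.41 for TXNRD1 and 0.79 for SRXN1, but −0.43 for NQO1, −0.08 for TXN and −0.28 for PRDX1.

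**Figure D3:**
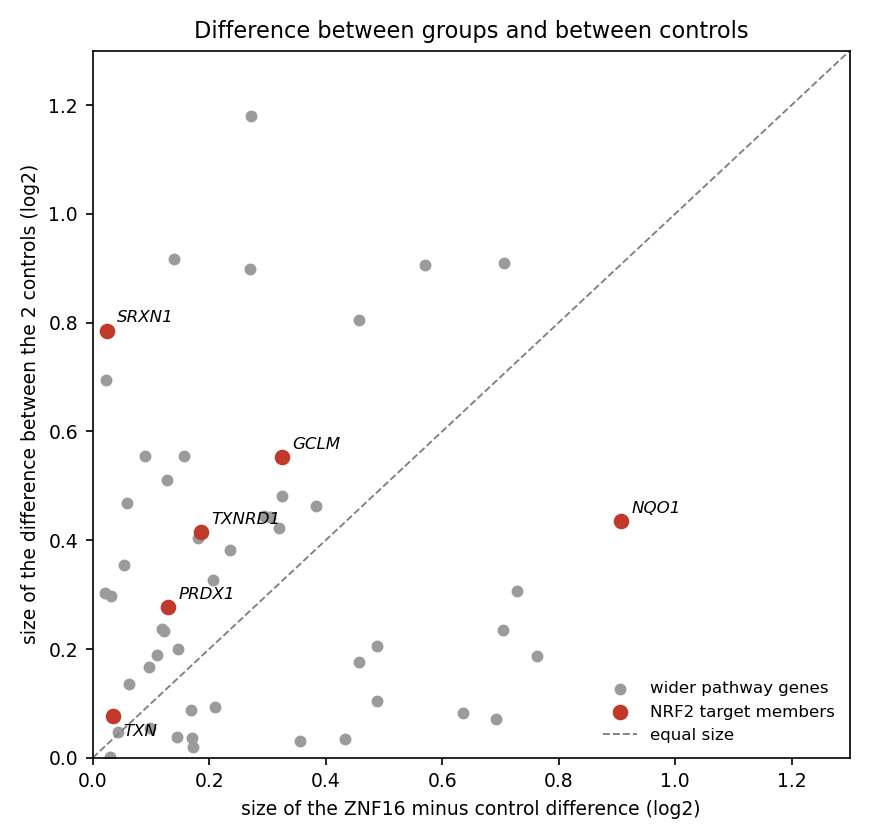
Size of the log2 difference between ZNF16 and control groups (horizontal axis) against the size of the difference between the 2 control arrays (vertical axis), for the 6 tested targets in red and the 47 tested genes of the wider pathway in grey; on the dashed line both are equal. NQO1, at 0.91 and 0.43, is the only target below the line.

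The regulators of the pathway showed no difference that passed the test. NFE2L2, the gene of NRF2 itself, had normalized log2 signals of 10.18 and 9.99 in ZNF16 replicates 1 and 2, against 9.90 and 10.20 in control replicates 1 and 2. The control arrays enclosed the ZNF16 arrays, and the log2 difference was 0.03 ± 0.23 (standard error; adjusted p = 0.976, limma). NRF2 activity is set largely through protein stability, which these arrays do not measure. KEAP1 missed the filter, with deposited detection p-values of 0.0544 and 0.0377 in the ZNF16 arrays and 0.124 and 0.0705 in the controls. Its deposited signals, combined from several probes, were 915 and 896 in the ZNF16 arrays, against 768 and 1063 in the controls, and overlapped. For such an entry a missed filter does not by itself show a signal at background. The inferred negative-control means of the arrays were 369.8 to 393.1. BACH1 was detected on no array, with detection p-values of 0.876 or more.

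Of 13 regulators, 6 were tested, 3 higher and 3 lower, and 0 passed. NFE2L1, a relative of NRF2 that controls proteasome genes, had a log2 difference of −0.46, but −0.05 without control replicate 2 and −0.86 without control replicate 1. SQSTM1, the autophagy receptor that can sequester KEAP1 and is also an NRF2 target, had −0.32 ± 0.24 (standard error; adjusted p = 0.740, limma), with both ZNF16 arrays below both controls, and −0.11 without control replicate 1. NFE2L3, another relative, had 0.18, and −0.02 without control replicate 2.

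The wider pathway was read from lists of 80 further genes, of which 47 were tested and 23 were detected on no array. With ZNF16, 16 of the 47 were higher and 31 lower, with a median log2 difference of −0.14 beside 0.01 over all tested entries, and 0 passed limma's test. Those with an unadjusted p under 0.05 numbered 1 above and 5 below, 2.13% and 10.6%, where all tested entries gave 3.68% and 4.00%. The median was −0.07 without control replicate 2, with 31 of 47 lower, and −0.17 without control replicate 1. Under median scaling it was −0.31, or −0.12 relative to all tested entries.

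**Figure D4:**
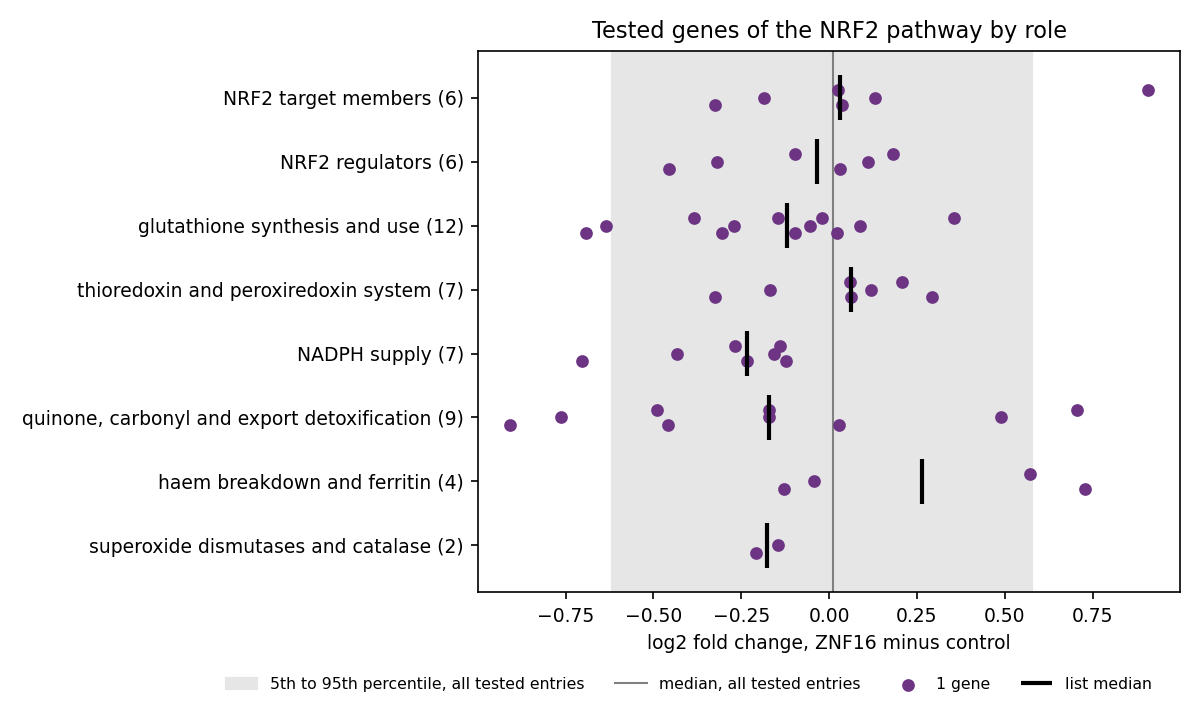
Log2 difference, ZNF16 minus control, of each tested gene (points) of the 9 targets and the wider pathway lists, with the number tested in brackets, list medians as black ticks, and the 5th to 95th percentile of all tested entries, −0.62 to 0.58, shaded. All 7 NADPH supply genes lie to the left of 0, and NQO1 is the target farthest to the right.

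The lowest value of the wider pathway was in the list of quinone and carbonyl metabolism and export. There 9 genes were tested, 3 above 0 and 6 below, at a median of −0.17. The median was −0.038 with negative-control statistics from all entries and −0.42 under median scaling. Above 0 were UGDH at 0.71 and PIR at 0.49 (limma adjusted p of 0.657 and 0.655), and ABCC1 at 0.03. Both ZNF16 arrays lay above both controls for 2 of the 9, UGDH and PIR, and below for 6, beside 21.0% and 19.0% of all tested entries. AKR1C3, an aldo-keto reductase that acts on steroids, prostaglandins and carbonyls, had normalized log2 signals of 10.09 and 10.25 in ZNF16 replicates 1 and 2, against 11.29 and 10.86 in control replicates 1 and 2. The groups did not overlap, and the log2 difference was −0.91 ± 0.24 (standard error; limma unadjusted p = 0.00790, adjusted p = 0.455). AKR1C3 has near-identical relatives that its probe may not separate. AKR1B1, the aldose reductase that turns glucose into sorbitol, had 8.92 and 9.05 in the ZNF16 arrays and 9.65 and 9.84 in the controls, a log2 difference of −0.76 (limma adjusted p = 0.490). On uncorrected signals AKR1B1 had −0.49, and −0.20 when the negative controls were inferred from all entries. NQO2, the relative of NQO1 that uses a different hydride donor, had −0.49 ± 0.21 (standard error; adjusted p = 0.655, limma), the opposite sign to NQO1.

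Of 12 tested glutathione genes, 3 lay above 0 and 9 below, at a median of −0.12. MGST3, a microsomal glutathione transferase, had 11.77 and 11.80 in ZNF16 replicates 1 and 2, against 12.51 and 12.44 in control replicates 1 and 2. It differed little within either group and had a log2 difference of −0.69 ± 0.21 (standard error; limma unadjusted p = 0.0137, adjusted p = 0.531), between −0.73 and −0.66 with 1 array left out and −1.14 with the negative-control mean and SD inferred from all entries. GLRX, the glutaredoxin that removes glutathione from protein thiols, had 9.09 and 8.97 in the ZNF16 arrays, against 9.70 and 9.62 in the controls, a log2 difference of −0.64 (limma adjusted p = 0.582), which was −0.40 on uncorrected signals and −0.17 when the negative controls were inferred from all entries. GSTK1, a glutathione transferase of mitochondria and peroxisomes, had −0.38, and −0.15 without control replicate 2.

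All 7 genes of NADPH supply, the source of reducing power for both systems, had values below 0, with a median of −0.24. The list depended on control replicate 2, in which its median was 0.38 above control replicate 1. Without that array 3 lay above 0 and 4 below, at a median of −0.0067. Without control replicate 1 all 7 lay below 0, at a median of −0.43. IDH1, the cytosolic isocitrate dehydrogenase, had normalized log2 signals of 9.58 and 10.20 in ZNF16 replicates 1 and 2, against 10.48 and 10.71 in control replicates 1 and 2, a log2 difference of −0.70 ± 0.28 (standard error; adjusted p = 0.634, limma). It was −0.39 without ZNF16 replicate 1. The malic enzyme ME1 had −0.43, and −0.17 on uncorrected signals and −0.035 when the negative controls were inferred from all entries, and the transketolase TKT had −0.24, and −0.04 without control replicate 2.

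Peroxiredoxins and thioredoxin partners had 7 tested genes, 5 above 0 and 2 below, at a median of 0.06. Without control replicate 2 the list had 3 above 0 and 4 below, at a median of −0.0056, and without control replicate 1 its median was 0.24. PRDX6 had a log2 difference of 0.29, which was 0.07 without control replicate 2, and PRDX2, abundant in red cells, had 0.21, which was 0.04 without it. PRDX5 had −0.33, and −0.08 without that array. The 3 had limma adjusted p-values from 0.766 to 0.826. Of the superoxide dismutases and catalase, SOD1 had −0.21 and CAT −0.15, with limma adjusted p-values of 0.825 and 0.877. Leaving out ZNF16 replicate 1 gave −0.055 for SOD1, and leaving out ZNF16 replicate 2 gave −0.36. Leaving out control replicate 2 gave −0.046 for CAT, and leaving out control replicate 1 gave −0.25.

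In haem breakdown and iron storage 4 genes were tested, 2 above 0 and 2 below, at a median of 0.26. The median was 0.02 without control replicate 2. Without control replicate 1 it was 0.50, with 3 above 0 and 1 below. FTL, the ferritin light chain, had −0.04, but its signals of 54277 to 61276 were near the array maxima of 65186 to 68827. Its sign therefore cannot be read, though the counts and medians include it. FTH1, the ferritin heavy chain that stores iron, had normalized log2 signals of 10.19 and 9.61 in ZNF16 replicates 1 and 2, against 9.33 and 9.02 in control replicates 1 and 2. Both ZNF16 arrays were above both controls, as for NQO1, with a log2 difference of 0.73 ± 0.27 (standard error; limma unadjusted p = 0.0341, adjusted p = 0.625). It was 0.49 on uncorrected signals and 0.24 when the negative controls were inferred from all entries. Without ZNF16 replicate 1 it was 0.44, and without ZNF16 replicate 2 it was 1.02. FTH1 has many processed copies in the genome, which its probe may not separate. The biliverdin reductases that act after HMOX1 had 0.57 for BLVRB and −0.13 for BLVRA. BLVRB had 0.12 without control replicate 2 and 1.02 without control replicate 1.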

How the data were processed

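The deposited signal table holds linear bead intensity values and a detection p-value for each, per the file headers, with 1 entry for each gene symbol. The values were made with GenomeStudio 2010.2, per the submitters' processing notes; genome build, annotation and probe combination: not given in the sources used here. A second deposited table of processed intensity values is a straight line of the same signals on each array (slopes 0.948 to 1.05), apart from 1 entry on each of 3 arrays that lay over 1 unit off the line, and served as an alternative. Detection p-values of single probes lie on steps of 1 in 770, as those of 27095 entries did; the remaining 7597 were treated as combining several probes.

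Here signals were corrected by normexp (limma 3.58.1, R 4.3.3), with negative-control mean and SD inferred from the detection p-values of single-probe entries, an offset of 16, quantile normalization and log2. Entries detected (p under 0.05) on at least 2 of 4 arrays, 10868, were fitted with lmFit and eBayes for the difference of ZNF16 from control, with two-sided p-values adjusted by Benjamini-Hochberg over all of them at 0.05; the fit was tested on simulated data. Alternatives were no background correction, negative-control statistics from all entries, normexp by maximum likelihood, an offset of 50, median scaling, the processed values floored at 16, no filter, a trended and robust variance, the replicate number as a block, and each array left out. The members and lists were chosen with earlier results of these data known, and no test was made over a list. Text names the 9 targets, NFE2L2, KEAP1, BACH1, SLC3A2, ATF4 and up to 3 tested genes of smallest p in each other list. Named besides are FTL, for its high signal, and UGDH, PIR and ABCC1, the 3 tested genes of the quinone list above 0. These were not among the 29 genes followed under the alternatives. Intensities of 4 arrays limit the precision, and levels are not compared between genes.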

Additional observations from a re-analysis of the deposited data

How the results depend on the processing

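No target passed the threshold under any of the 13 alternatives, and NQO1 stayed above 0 and GCLM below 0 in all of them. Of 377 values of 29 genes under these alternatives, 359 kept their sign and 18 did not, and none of the 29 genes passed with all arrays kept. The log2 differences were the same without the filter, with trended and robust variance and with the replicate block, so their signs could not change. For genes whose groups did not overlap, NQO1 and GCLM among them, leaving out 1 array could not change the sign either. The 359 include these fixed signs. Over all entries, where 0 passed limma's test (400 higher and 435 lower at an unadjusted p under 0.05), 3 passed with normexp by maximum likelihood, 3 with an offset of 50, 3 with trended and robust variance, 7 with median scaling and 0 to 2 with 1 array left out. With the replicate number as a block 128 passed on 1 fewer residual degree of freedom, and no target did; deviations of same-numbered arrays correlated at 0.19 over tested entries, with 2 pairs, so the numbers were not taken to pair the arrays. Median scaling gave SRXN1 −0.22, TXN −0.20, PRDX1 −0.18, NFE2L2 −0.16 and NFE2L3 −0.12, against a median of −0.19 over all tested entries. SRXN1 was −0.0034 with negative-control statistics from all entries, and ATF4 was 0.058 in the authors' processed values. With 1 array left out, SRXN1 ranged from −0.37 to 0.42, TXNRD1 from −0.39 to 0.022, TXN from −0.0035 to 0.074, PRDX1 from −0.0093 to 0.27, NFE2L2 from −0.12 to 0.18, NFE2L3 from −0.021 to 0.38, ATF4 from −0.27 to 0.24 and BLVRA from −0.38 to 0.13. The cause was not tested. A lone array of a group was then assumed to vary like the other group. Signal near the negative controls limits HMOX1, GCLC, SLC7A11 and BACH1.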
